A study of Rattus norvegicus with 54 samples.

Results

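The bone morphogenetic protein (BMP) genes described here are 5 ligands (Bmp2, Bmp4, Bmp6, Bmp7 and Bmp10), 2 secreted proteins that bind these ligands (Bmper and Grem1) and 2 target genes of the pathway (Id1 and Id3). They were chosen by name, with earlier results of these data known. The 9 symbols were matched in the gene column of each of the 54 count tables, which list 40319 genes. All animals were female athymic rats of the strain F344/NJcl-rnu/rnu, 8 weeks old, which lack thymus-derived T cells so that human cells are tolerated. The sham group had sham surgery. The MI group had a permanent ligation of the left anterior descending coronary artery and no further treatment. The MI+Cell Sheet group had the same ligation and received, on the surface of the ischemic area, a bi-level sheet of human smooth muscle cells (SMCs) and human endothelial progenitor cells (EPCs). Hearts were taken 1 week after surgery, and each of the 6 animals per treatment gave an infarct, a border and a remote zone piece (the last from the septum), so that there were 9 groups of 6 libraries. Each piece is whole tissue below the stitch, so the level of a gene in it mixes all its cell types, and fewer cells of a type and less RNA per cell cannot be told apart. Reads were aligned to the rat genome only, so human transcripts of the sheet that align to rat genes cannot be told apart from rat transcripts. In the labels the 6 libraries are technical replicates, whereas the study's methods describe separate hearts. If the labels were right, the p-values would measure technical spread only.

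BMPs are secreted ligands of the transforming growth factor beta family. They bring type I and type II serine/threonine kinase receptors together, the receptors phosphorylate SMAD1, SMAD5 and SMAD9, and these enter the nucleus with SMAD4. The Id genes, which encode helix-loop-helix proteins that keep other transcription factors from binding DNA, are among the best known direct targets. Gremlin-1, noggin and chordin bind ligands outside the cell and keep them from their receptors, whereas BMPER can dampen or enhance the signal depending on its amount. In the heart, BMP2, BMP4 and BMP10 are known for their parts in development, and BMP6 for the control of hepcidin and iron in the liver.

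Counts on genes ranged from 12699204 to 23397754 per library. The unit of a level is CPM (counts over the library total, adjusted by TMM factors of all 54 libraries), which allows one gene to be compared between libraries but not one gene with another, since no gene lengths were used. All 10 cardiomyocyte markers were above 0 in every library, whereas the summed atrial list lay between 2.16 and 490 CPM. One sham animal stood apart. Its libraries (sham replicate 5) held 23091 to 43428 CPM of cardiomyocyte markers, against 59844 to 79567 CPM in the other 15 sham libraries, and 1304 to 1843 CPM of macrophage markers, against 199 to 415 CPM. The remote library of MI+Cell Sheet replicate 1 held 39678 CPM of the 8 fibroblast markers, against 3412 to 11339 CPM in the other 5 of its group, and the border library of the same animal held 557 CPM of cardiomyocyte markers. These libraries were kept, and values without them are given where they change a result.

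A comparison is read against how many of all genes tested passed the same threshold, an adjusted p under 0.05 in edgeR's quasi-likelihood test. Between MI and sham, 49.9% of genes passed in the infarct zone (22.7% higher and 27.2% lower in MI), 41.7% in the border zone (18.4% higher and 23.2% lower) and 25.8% in the remote zone (11.7% higher and 14.2% lower). Between MI+Cell Sheet and sham the shares were 57.9% (28.6% higher and 29.2% lower), 43.6% (20.4% higher and 23.2% lower) and 0.0066%, which is 1 gene. Between MI+Cell Sheet and MI they were 0% (infarct), 18% at the border (8.47% higher and 9.48% lower) and 17.1% in remote tissue (10.3% higher and 6.79% lower). Under library size scaling without TMM factors the share of calls that were higher moved from 45.5% to 67.1% (infarct), 44.2% to 64.1% (border) and 45.1% to 68.6% (remote) for MI against sham. It moved from 49.5% to 66.3% (infarct) and 46.8% to 71.2% (border) for MI+Cell Sheet against sham, and from 47.2% to 57.3% (border) and 60.2% to 48.5% (remote) for MI+Cell Sheet against MI. The MI libraries enter both the comparison with sham and the comparison with MI+Cell Sheet, so the values of the 2 comparisons are not independent.

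**Figure D1:**
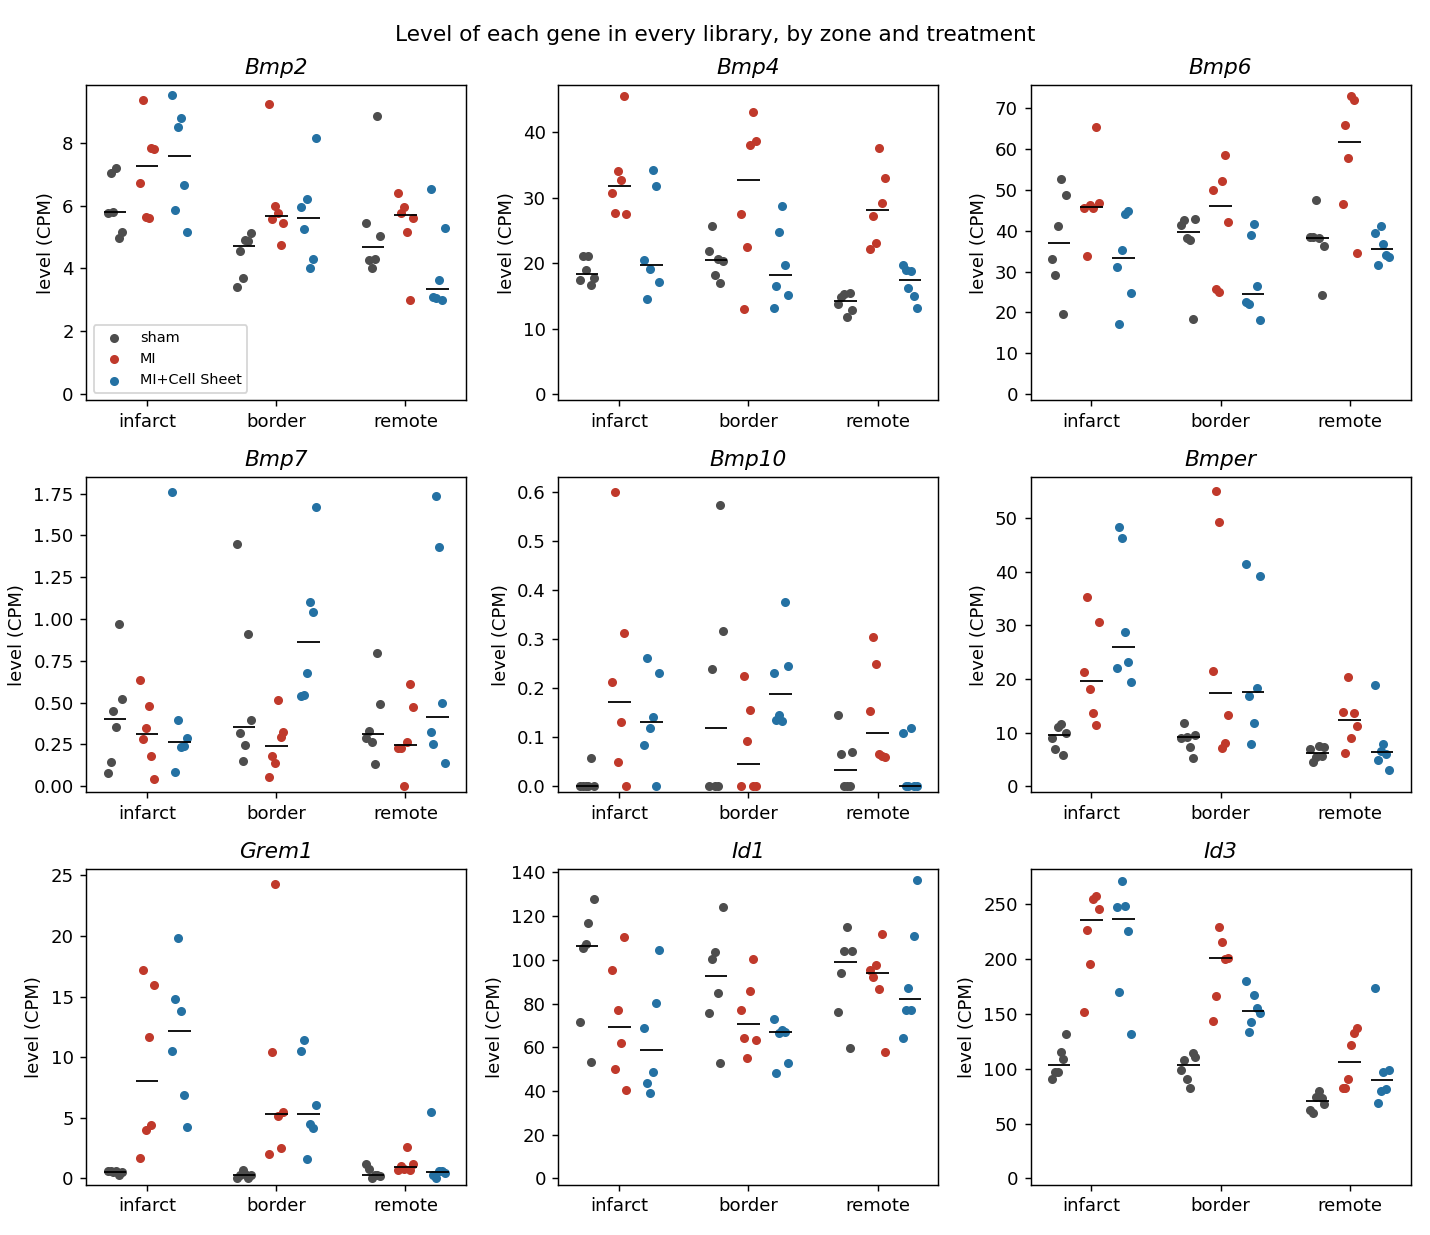
Level of each of the 9 genes in every library, in CPM on a linear axis that includes 0, by zone and treatment; each point is 1 library of 1 animal and the bars are medians of 6. Grem1 and Id3 lie higher in both MI groups than in sham in the infarct and border zones, Bmp4 lies high in MI hearts, and Bmp7 and Bmp10 stay near 0 throughout.

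Stretches upstream of 3 of these genes are shown: Id1 and Id3, which are named together as BMP targets and took different courses, and Grem1, which had the largest fold changes. No result given here depends on these stretches. The letters are bases 250 to 40 before the RefSeq start of each gene in the assembly GRCr8, 5′ to 3′ on the strand of the gene, so none of the transcript is included. RefSeq promoter entries matched 7 of the 9 genes. Capitals mark the letters TATAAA and CCAAT, which are core promoter motifs, and GGCGCC and CAGAC, which are short motifs that SMAD proteins can bind, each searched on both strands. No match overlaps another. They lie at chr3:161671314-161671524 on the plus strand (Id1), chr5:153656041-153656251 on the plus strand (Id3) and chr3:120978359-120978569 on the minus strand (Grem1).
Id1: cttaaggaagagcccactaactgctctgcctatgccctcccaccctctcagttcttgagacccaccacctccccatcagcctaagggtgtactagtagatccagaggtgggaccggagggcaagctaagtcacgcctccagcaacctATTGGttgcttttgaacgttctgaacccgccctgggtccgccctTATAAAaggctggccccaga
Id3: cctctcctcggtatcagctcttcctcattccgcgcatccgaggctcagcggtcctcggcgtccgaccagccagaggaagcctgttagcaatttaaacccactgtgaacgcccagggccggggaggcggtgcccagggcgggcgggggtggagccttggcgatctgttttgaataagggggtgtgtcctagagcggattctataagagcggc
Grem1: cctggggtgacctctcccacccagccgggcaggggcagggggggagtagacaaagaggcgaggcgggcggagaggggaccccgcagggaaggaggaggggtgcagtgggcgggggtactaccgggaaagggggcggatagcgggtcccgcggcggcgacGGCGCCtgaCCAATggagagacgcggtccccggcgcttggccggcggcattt
The Id1 window holds TATAAA once and the reverse complement of CCAAT once. The Grem1 window holds CCAAT once and GGCGCC once, and the Id3 window holds none of the 4. Over the 33469 windows of the same 211 bases in the table, TATAAA on either strand was present in 10.6%, CCAAT in 30.2%, GGCGCC in 7.05% and CAGAC in 37.9%. These matches describe the letters only, and binding was not measured. Letters outside these windows were not searched, so a window without a match does not mean a gene without such motifs.

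Among the ligands, Bmp4 gave the clearest differences. In the remote zone it lay between 11.8 and 15.5 CPM in sham hearts (median 14.3), between 22.2 and 37.7 CPM in MI hearts (median 28.1) and between 13.1 and 19.7 CPM in MI+Cell Sheet hearts (median 17.4). Every MI library was above every library of the other 2 treatments. Bmp4 rose 2.05-fold in MI against sham (log2 fold change 1.03, SE 0.14, adjusted p = 0.000803) and was lower in MI+Cell Sheet than in MI by 0.78 on the log2 scale (log2 fold change -0.78, SE 0.15, adjusted p = 0.009). With the replicate number as a block the last call was lost (adjusted p = 0.0577), and without MI+Cell Sheet replicate 1 the value was -0.83 (adjusted p = 0.00108). Against sham, the MI+Cell Sheet remote zone gave a log2 fold change of 0.25 (SE 0.13, adjusted p = 0.55). Marker sums moved with these groups. In the remote libraries the fibroblast list summed to 3468 to 5306 CPM in sham, 6499 to 23560 CPM in MI and 3412 to 11339 CPM in MI+Cell Sheet apart from replicate 1, at 39678 CPM. The cardiomyocyte list summed to 43428 to 79129 CPM, 32006 to 53305 CPM and 29751 to 82118 CPM, where the lowest MI+Cell Sheet value was again replicate 1 and the next was 58472 CPM. Their part in the remote differences of Bmp4, and of Bmp6 described further on, was not tested.

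The infarct zone gave a similar order of medians for Bmp4, with more spread in the treated hearts. Sham libraries lay between 16.7 and 21.2 CPM (median 18.3), MI libraries between 27.6 and 45.5 CPM (median 31.7) and MI+Cell Sheet libraries between 14.6 and 34.2 CPM (median 19.7). MI and sham did not overlap, and Bmp4 rose 1.74-fold in MI (log2 fold change 0.80, SE 0.13, adjusted p = 0.000834). The MI+Cell Sheet group overlapped both others, and neither difference passed the threshold. It differed from MI by -0.54 on the log2 scale (SE 0.22, adjusted p = 0.542) and from sham by 0.27 (SE 0.20, adjusted p = 0.264).

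In the border zone, MI libraries ranged more widely, from 13 to 43.1 CPM of Bmp4 (median 32.8), against 17 to 25.7 CPM in sham (median 20.5) and 13.2 to 28.7 CPM in MI+Cell Sheet (median 18.1). MI replicate 2 was the lowest of all 18 border libraries. No border difference of Bmp4 passed the threshold with all animals (MI against sham 0.57, SE 0.25, adjusted p = 0.0804, and MI+Cell Sheet against MI -0.63, SE 0.28, adjusted p = 0.143). Without MI replicate 2 both did, at 0.73 (adjusted p = 0.0112) and -0.79 (adjusted p = 0.0369).

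Bmp6, the ligand known for inducing hepcidin, showed its differences in the remote zone. It lay between 24.3 and 47.5 CPM in sham (median 38.3), between 34.6 and 72.9 CPM in MI (median 61.7) and between 31.7 and 41.1 CPM in MI+Cell Sheet (median 35.4). The highest sham library overlapped the lower MI libraries, and MI replicates 1 and 6 lay within the sham range. Bmp6 rose in MI against sham (log2 fold change 0.65, SE 0.19, adjusted p = 0.0246) and was lower in MI+Cell Sheet than in MI (-0.71, SE 0.16, adjusted p = 0.0162), a call that was lost with the replicate number as a block (adjusted p = 0.0678). The rise over sham was lost when MI replicate 4 (adjusted p = 0.0581) or MI replicate 5 (adjusted p = 0.0607) was left out.

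Elsewhere Bmp6 did not pass the threshold, although under library size scaling MI against sham did so in the infarct zone (log2 fold change 0.61, adjusted p = 0.0306, against 0.33 with TMM factors). Infarct zone medians were 37, 45.9 and 33.2 CPM in sham, MI and MI+Cell Sheet, and border zone medians were 39.7, 46 and 24.6 CPM. In the infarct and border zones sham replicate 5 was the lowest sham library, at 19.6 and 18.4 CPM. Without it, MI+Cell Sheet was lower than sham in the border zone (log2 fold change -0.55, adjusted p = 0.031), whereas with it the value was -0.40 (SE 0.25, adjusted p = 0.203). The difference between MI+Cell Sheet and MI was -0.53 (SE 0.23) in the infarct zone and -0.58 (SE 0.27) in the border zone, with adjusted p-values of 0.569 and 0.153.

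Bmp2 was not called in any of the 9 comparisons. Its group medians ran from 3.36 CPM in the MI+Cell Sheet remote zone to 7.58 CPM in the MI+Cell Sheet infarct zone, and all treatments overlapped in each zone. The nearest to the threshold was MI against sham in the border zone, with 4.76 to 9.22 CPM in MI (median 5.66) against 3.4 to 5.13 CPM in sham (median 4.71) and a log2 fold change of 0.47 (SE 0.19, adjusted p = 0.0603). It passed without sham replicate 5 (0.50, adjusted p = 0.0416) and without MI replicate 5 (0.53, adjusted p = 0.0436). Under library size scaling it passed in the infarct and border zones of both infarcted groups against sham, with log2 fold changes of 0.52 to 0.66.

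Bmp7 was measured at a few counts per library. It passed the default filter on low counts in only 2 of the 9 comparisons, both in the border zone with MI+Cell Sheet, where it lay between 0.541 and 1.67 CPM (12 to 34 counts, median 0.86 CPM). MI border libraries held 0.0584 to 0.518 CPM (1 to 10 counts, median 0.238 CPM), and the fitted log2 fold change was 1.86 (SE 0.45). The gene entered that fit only through the group in which it is high and had to differ there, so the value is a description, and a filter of 10 counts in every library removed it. Sham border libraries, at 0.151 to 1.45 CPM, overlapped MI+Cell Sheet, and the difference from sham was 0.64 (SE 0.51, adjusted p = 0.318). Marker sums of other cell types are set beside this. The 6 mesothelial markers were above 0 in every border library and summed to 47 to 687 CPM in MI+Cell Sheet against 75 to 501 CPM in MI, and the 7 mural markers summed to 1181 to 1336 CPM against 501 to 796 CPM. The mural sums were also higher in MI+Cell Sheet than in MI in the infarct and remote zones, where the Bmp7 ranges overlapped. Those sums were 952 to 1266 against 623 to 894.5 CPM (infarct) and 1023 to 1240 against 588 to 756 CPM (remote). The part of these marker sums in the Bmp7 difference was not tested.

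Bmp10, a ligand best known from the atrial and embryonic heart, was at 0 in 20 of the 54 libraries and never exceeded 15 counts or 0.6 CPM. A count of 0, which allows up to 3 counts, corresponds to a limit of 0.116 to 0.262 CPM depending on the library, for counting error only. Bmp10 passed the default filter in none of the comparisons. In the sham infarct zone 5 libraries held 0 counts and the other held 1, while MI libraries held 0 to 15 and MI+Cell Sheet libraries 0 to 6. Summed over 6 libraries, 30 counts in MI against 1 in sham gave a ratio of 19 with a 95% interval of 3.16 to 776, which covers counting error only. Of the 30 counts 15 came from MI replicate 2, and without it, an alternative chosen after seeing the data, 15 counts against 1, from sham replicate 5, gave a ratio of 11.8 with an interval of 1.81 to 495. DESeq2, which did not drop the gene, gave a log2 fold change of 3.51 (SE 1.36) for MI and 2.86 (SE 1.24) for MI+Cell Sheet against sham. With 1 sham count, the gene could enter only through the infarcted groups, so these values are a description. The border zone value for MI had the other sign (-1.27, SE 1.42), with 0 to 12 counts in sham and 0 to 5 in MI. In the remote zone it was 1.71 (SE 1.18). For MI+Cell Sheet against sham the values were 0.11 (SE 0.85, border) and -0.25 (SE 1.77, remote). In the infarct zone the summed atrial list was 13 to 25 CPM in sham, 7 to 87 CPM in MI and 7 to 45 CPM in MI+Cell Sheet, and its part in the Bmp10 values was not tested.

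**Figure D2:**
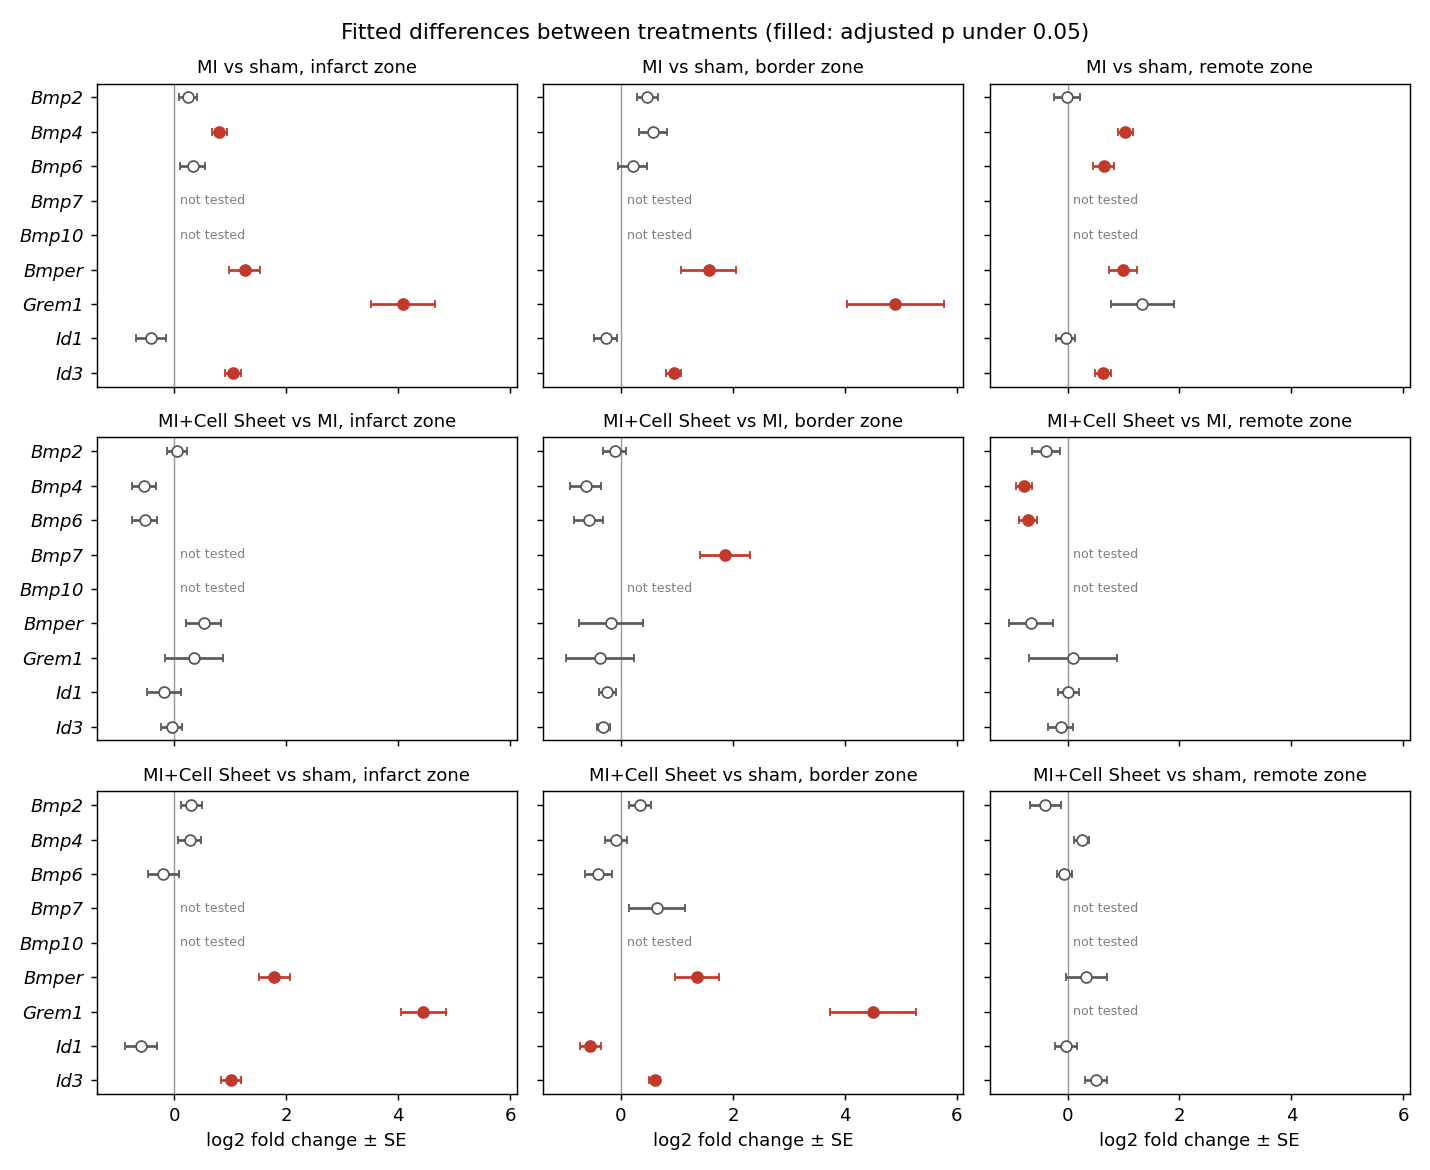
Fitted log2 fold changes of the 9 genes with their standard errors in the 9 comparisons, 1 panel each; filled points have an adjusted p under 0.05 and genes that failed the filter on low counts are marked as not tested. Grem1 lies near 4 or above in the infarct and border zones of both MI groups against sham, and in the remote zone Bmp4 and Bmp6 lie right of 0 for MI against sham and left of 0 for MI+Cell Sheet against MI. The filled Bmp7 point at the border and the filled Grem1 points are genes that passed the filter only through their high groups.

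Grem1, the ligand-binding antagonist, showed the largest fold changes of the 9 genes. In the infarct zone it lay between 0.286 and 0.641 CPM in sham (5 to 9 counts, median 0.555 CPM), between 1.69 and 17.2 CPM in MI (median 8.03) and between 4.22 and 19.8 CPM in MI+Cell Sheet (median 12.1). Sham did not overlap either MI group, while the MI groups overlapped over most of their ranges. Grem1 rose 17-fold in MI (log2 fold change 4.09, SE 0.56) and 21.8-fold in MI+Cell Sheet (4.45, SE 0.40). The gene entered these fits against sham only through the infarcted groups, where it is high, so both values are a description. MI+Cell Sheet and MI differed by 0.35 (SE 0.52, adjusted p = 0.887).

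In the border zone Grem1 was at 0 in 2 sham libraries and reached 0.678 CPM in the highest, with a median of 0.317 CPM. MI libraries lay between 2.04 and 24.3 CPM (median 5.32) and MI+Cell Sheet libraries between 1.6 and 11.4 CPM (median 5.3). Neither MI group overlapped sham. The rise was 4.90 on the log2 scale in MI (SE 0.87) and 4.51 in MI+Cell Sheet (SE 0.76). Both values are a description, since here too the gene entered the fits against sham only through the infarcted groups. The 2 MI groups differed by -0.38 (SE 0.61, adjusted p = 0.711).

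The remote zone held little Grem1, with 0.066 to 1.16 CPM in sham (median 0.277), 0.687 to 2.59 CPM in MI (median 0.938) and 0.0579 to 5.48 CPM in MI+Cell Sheet (median 0.53). MI gave a log2 fold change of 1.34 over sham (SE 0.56, adjusted p = 0.0957), which became 1.82 (adjusted p = 0.0383) without sham replicate 1. A single library, MI+Cell Sheet replicate 1, set the value against MI. With it the log2 fold change was 0.10 (SE 0.78, adjusted p = 0.939), and without it the sign turned and the difference passed the threshold (-1.56, adjusted p = 0.03). That library is the one with 39678 CPM of fibroblast markers.

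Bmper, whose protein binds BMPs and sets how much of them reaches the receptor, was higher in MI than in sham in all 3 zones. Infarct zone levels were 5.84 to 11.5 CPM in sham (median 9.49), 11.4 to 35.3 CPM in MI (median 19.7) and 19.4 to 48.3 CPM in MI+Cell Sheet (median 25.9). The lowest MI library lay just inside the sham range, and MI+Cell Sheet lay wholly above sham. Bmper rose 2.39-fold in MI (log2 fold change 1.25, SE 0.28, adjusted p = 0.00396) and 3.45-fold in MI+Cell Sheet (1.79, SE 0.28, adjusted p = 0.000376). The difference between MI+Cell Sheet and MI did not pass the threshold (0.52, SE 0.31, adjusted p = 0.692).

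Border zone levels ranged more widely in the infarcted groups. Sham lay between 5.21 and 11.7 CPM (median 9.13), MI between 7.05 and 55 CPM (median 17.4) and MI+Cell Sheet between 7.96 and 41.4 CPM (median 17.5). Of the MI libraries, replicates 2 and 3 held 55 and 49.2 CPM, and the next highest held 21.5 CPM. The log2 fold change over sham was 1.57 in MI (SE 0.50, adjusted p = 0.025) and 1.36 in MI+Cell Sheet (SE 0.39, adjusted p = 0.0145). MI+Cell Sheet was at -0.18 against MI (SE 0.57, adjusted p = 0.858). The MI call was lost without MI replicate 2 (1.20, adjusted p = 0.0633), without MI replicate 3 (1.28, adjusted p = 0.0625) and without sham replicate 4 (1.52, adjusted p = 0.0524).

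In the remote zone Bmper lay between 4.52 and 7.45 CPM in sham (median 6.28), between 6.22 and 20.4 CPM in MI (median 12.4) and between 3.13 and 18.8 CPM in MI+Cell Sheet (median 6.3). MI rose over sham by 0.99 on the log2 scale (SE 0.25, adjusted p = 0.013). The highest MI+Cell Sheet value was again replicate 1, and the next was 7.86 CPM. Against MI the log2 fold change was -0.66 (SE 0.39, adjusted p = 0.245) with that library and -1.13 (adjusted p = 0.00722) without it.

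Fibroblast and myofibroblast markers moved with both of these genes. All 5 myofibroblast markers (Postn, Acta2, Cthrc1, Fn1 and Tnc) and all 8 fibroblast markers were above 0 in every library. In the infarct zone the myofibroblast sum was 203 to 835 CPM in sham, 2116 to 7547 CPM in MI and 5137 to 11245 CPM in MI+Cell Sheet. In the border zone it was 199 to 820, 2094 to 8005 and 4006 to 9868 CPM, and in the remote zone 232 to 1009, 583 to 3172 and 279 to 6473 CPM. Within the MI border group the highest sums, 8005 and 6453 CPM, were those of replicates 3 and 2, the libraries with the most Bmper and the most Grem1. In the MI+Cell Sheet border group, the highest sums (9868 and 9247 CPM, replicates 6 and 1) were those of the libraries with the most Bmper. For Grem1 this did not hold there. Replicate 6 held 6.1 CPM of Grem1, and replicate 2, with a sum of 4836 CPM, held the most, at 11.4 CPM. The part of cell makeup in the differences of Bmper and Grem1 was not tested.

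**Figure D3:**
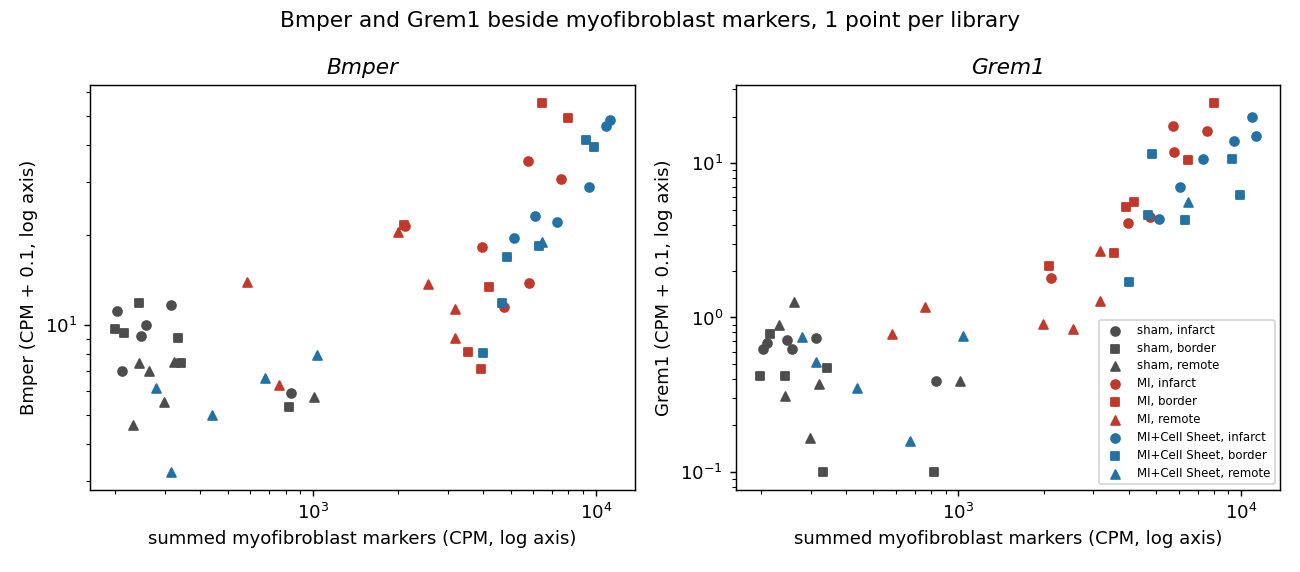
Bmper (left) and Grem1 (right), both as CPM plus 0.1, against the summed CPM of 5 myofibroblast markers, both axes logarithmic, 1 point per library, coloured by treatment and shaped by zone. Sham libraries lie between 199 and 1009 CPM of markers, where most remote MI+Cell Sheet libraries lie too, and the remote point of MI+Cell Sheet replicate 1, at 6473 CPM, lies among the infarct and border points.

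Id3 was higher in MI hearts in every zone. In the infarct zone it lay between 90.2 and 131 CPM in sham (median 103), between 152 and 257 CPM in MI (median 236) and between 132 and 271 CPM in MI+Cell Sheet (median 236). Both MI groups lay above sham without overlap, with the lowest MI+Cell Sheet library only just above the highest sham library. Id3 rose 2.06-fold in MI (log2 fold change 1.04, SE 0.14, adjusted p = 0.000309) and 2.01-fold in MI+Cell Sheet (1.01, SE 0.17, adjusted p = 0.000596). The 2 differed by -0.05 (SE 0.18, adjusted p = 0.96).

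The border zone gave 82.9 to 114 CPM of Id3 in sham (median 103), 143 to 229 CPM in MI (median 200) and 134 to 180 CPM in MI+Cell Sheet (median 153). Sham again did not overlap the others. The rise was 0.94 on the log2 scale in MI (SE 0.13, adjusted p = 0.00043) and 0.60 in MI+Cell Sheet (SE 0.10, adjusted p = 0.000687). MI+Cell Sheet was at -0.31 against MI (SE 0.12, adjusted p = 0.0975), which passed the threshold without MI replicate 1 (-0.39, adjusted p = 0.0317).

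Remote zone medians of Id3 were lower than those of the other zones in each treatment, with 59.3 to 80.1 CPM in sham (median 70.4), 82 to 137 CPM in MI (median 106) and 69 to 173 CPM in MI+Cell Sheet (median 89.5). MI did not overlap sham and rose by 0.63 (SE 0.15, adjusted p = 0.00834). The MI+Cell Sheet group overlapped both others, its highest library being replicate 1 at 173 CPM against 99 CPM for the next. It was at 0.51 against sham (SE 0.20, adjusted p = 0.456) and at -0.12 against MI (SE 0.22, adjusted p = 0.723).

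Id1, in contrast, was higher in MI in none of the comparisons. Infarct zone libraries held 53.1 to 128 CPM in sham (median 106), 40.6 to 110.5 CPM in MI (median 69.4) and 39.2 to 104 CPM in MI+Cell Sheet (median 58.8). Border zone libraries held 52.6 to 124 CPM (median 92.7), 55.2 to 100 CPM (median 70.5) and 48.4 to 72.8 CPM (median 66.9) in the same order. All groups overlapped. The only call was a lower level in the MI+Cell Sheet border zone than in sham (log2 fold change -0.55, SE 0.19, adjusted p = 0.0315). It was lost in several leave-outs, to an adjusted p of up to 0.0712 (without sham replicate 6, where the value was -0.44), and under library size scaling the value shrank to -0.26 (adjusted p = 0.221).

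For the infarct zone Id1 gave -0.42 in MI (SE 0.27, adjusted p = 0.209) and -0.60 in MI+Cell Sheet (SE 0.29, adjusted p = 0.0871) against sham. The sham library with the lowest Id1 in each zone was replicate 5, at 53.1, 52.6 and 59.7 CPM. Without it, the MI+Cell Sheet infarct zone was lower than sham (-0.74, adjusted p = 0.0219), as it was without MI+Cell Sheet replicate 6 (-0.81, adjusted p = 0.0203). Remote zone medians were 99, 93.8 and 81.9 CPM in sham, MI and MI+Cell Sheet. No remote difference of Id1 passed the threshold, with log2 fold changes of -0.03 (SE 0.17) for MI against sham and 0.01 (SE 0.19) for MI+Cell Sheet against MI.

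The ratio of Id3 to Id1 within a library, a measure chosen after the values had been seen and given without a test, had a lower median in remote tissue than in the other zones of both MI groups, with overlapping ranges. On the log2 scale the sham medians were 0.01 in the infarct, 0.03 in the border and -0.51 in the remote zone. MI medians were 1.69, 1.35 and 0.07, and MI+Cell Sheet medians were 1.91, 1.31 and -0.14. The highest sham ratio in each zone was 1.04, 1.11 and 0.29, and the lowest MI ratios were 0.67, 0.90 and -0.22, so the ranges overlapped in all 3 zones between MI and sham. That overlap came from sham replicate 5, since the next sham ratios, of replicate 1, were 0.34, 0.38 and -0.29 and lay below every MI ratio of their zone. Cardiomyocyte markers summed to 25217 to 79567 CPM in the sham infarct zone, 4270 to 39335 CPM in MI and 1281 to 39281 CPM in MI+Cell Sheet, and their part in the ratio was not tested.

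**Figure D4:**
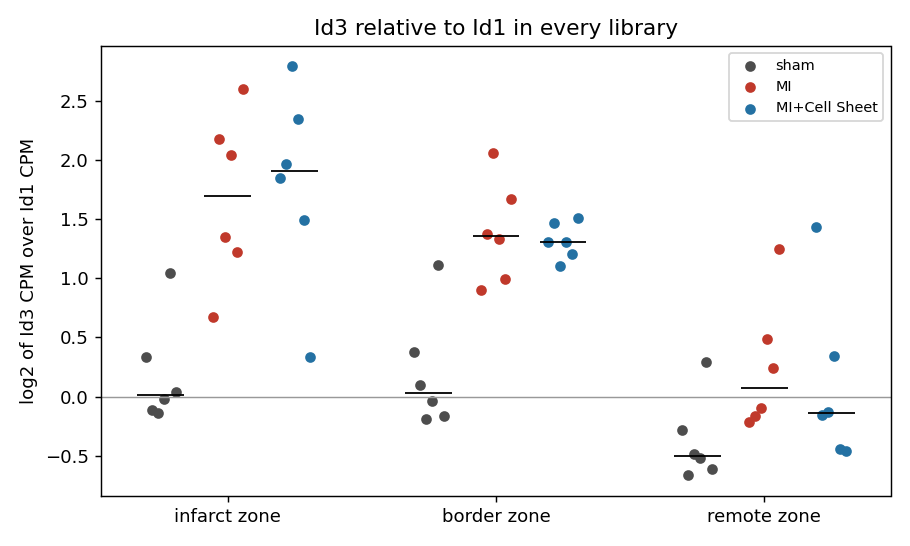
Log2 of the Id3 level over the Id1 level (both in CPM) in every library, by zone and treatment, with bars at the median of 6. Infarct and border libraries of both infarcted groups lie mostly above 0.67, and the medians of the sham and remote groups lie between -0.51 and 0.07.

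An interaction term, in a fit that blocked on the animal, tested whether an effect differed by zone. The effect of MI over sham was larger in the infarct than in the remote zone for Grem1 (difference 2.57 on the log2 scale, SE 0.89, adjusted p = 0.0348) and for Id3 (0.44, SE 0.15, adjusted p = 0.0283), among 26.3% of all genes that differed in this way. Both calls were lost without sham replicate 5 (adjusted p of 0.0545 and 0.0532 for Grem1 and Id3), without MI replicate 2 (0.0788 and 0.0857) and without sham replicate 1 (0.0991 and 0.0531). That of Grem1 was also lost without MI replicate 6 (0.0717) or sham replicate 2 (0.0931), and that of Id3 without MI replicate 4 (0.0509) or sham replicate 3 (0.0888). Id1, at -0.40 (SE 0.17, adjusted p = 0.0865), passed without MI replicate 1 (-0.49, adjusted p = 0.0407). No member passed for the border against the remote zone, where 3.82% of all genes did and Grem1 was at 3.29 (SE 0.95, adjusted p = 0.0505, and 0.033 to 0.0461 without MI replicate 1, 4, 5 or 6), or for the infarct against the border zone, where the share of all genes was 0.00554%, which is 1 gene. For the effect of the cell sheet over MI no member passed in any of the 3 contrasts between zones, whose background shares were 1.72% (infarct against remote), 2.5% (border against remote) and 0.0594% (infarct against border). The values nearest to the threshold there were those of Bmper for the infarct against the remote zone (1.47, SE 0.65, adjusted p = 0.179).

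Counted over the 9 genes, MI hearts against sham had 4 higher in the infarct zone (Bmp4, Bmper, Grem1 and Id3), 3 at the border (Bmper, Grem1 and Id3) and 4 in remote tissue (Bmp4, Bmp6, Bmper and Id3), and none was lower. In each of these zones 7 of the 9 passed the filter, beside 22.7%, 18.4% and 11.7% of all genes that were higher. The remote share rests on 1782 higher of 3952 genes called, and without sham replicate 5 these were 3656 of 7177. Against sham in the infarct and border zones, Grem1 passed the filter only through the infarcted groups. MI+Cell Sheet hearts against sham had 3 of 7 higher in the infarct zone, beside 28.6% of all genes, and 3 higher with 1 lower of 8 at the border, beside 20.4% and 23.2%. None of the 6 that passed the filter was called in remote tissue, with 0.0066% of all genes called there. Against MI, the MI+Cell Sheet hearts had none of 7 in the infarct zone, beside 0% of all genes. At the border 1 of 8 was higher (Bmp7), beside 8.47% of all genes, and with the filter of 10 counts there was none. In remote tissue 2 of 7 were lower (Bmp4 and Bmp6), beside 6.79% of all genes. Both this count and its background moved with the fit. With the replicate block neither gene was called, and the calls over all genes went from 2623 to 3. Without MI+Cell Sheet replicate 1, Bmper and Grem1 were called lower as well, and 6450 of all genes were called, of which 3222 were higher. In the infarct zone that comparison called none of 16196 genes with edgeR, where 1341 had an unadjusted p under 0.05 and DESeq2 called 56. Median log2 fold changes over the members tested were 0.80, 0.57 and 0.65 for MI against sham in the infarct, border and remote zones, where all genes tested had medians of -0.02, -0.02 and -0.04. The members were chosen with earlier results of these data known, unlike the set of all genes. These counts and medians therefore describe the members, and nothing particular to the pathway is read from them.

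Around these genes, 48 other genes of the pathway were looked at in 5 lists. Of these, 37 were tested in each zone of MI against sham. The infarct zone had 13 higher and 5 lower, the border zone 10 higher and 6 lower and the remote zone 6 higher and 3 lower. Between MI+Cell Sheet and MI none of 40 was called in the infarct zone, 4 were higher and 1 lower of 38 in the border zone, and 2 were lower of 38 in the remote zone. Against sham, MI+Cell Sheet had 13 higher and 7 lower of 37 in the infarct zone, 12 higher and 3 lower of 38 in the border zone and none of 35 in the remote zone. Beside these stand the shares of all genes tested, which for MI against sham were 22.7% higher and 27.2% lower (infarct), 18.4% and 23.2% (border), and 11.7% and 14.2% (remote). For MI+Cell Sheet against MI they were 8.47% and 9.48% at the border and 6.79% lower in remote tissue, and against sham 28.6% and 29.2% (infarct), and 20.4% and 23.2% (border). The same shares stand beside the counts of each list that follow, and nothing particular to the pathway is read from those counts.

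Only 1 or 2 of the 9 other ligands were tested in MI against sham, since most had few counts. Gdf6, a growth and differentiation factor of the BMP group, was listed with medians of 0 CPM in the sham and 5.71 CPM in the MI infarct zone, and its fitted log2 fold changes were 4.01 (SE 0.97, adjusted p = 0.00573) in the infarct, 3.13 (SE 0.80, adjusted p = 0.00989) in the border and 3.03 (SE 0.89, adjusted p = 0.0253) in the remote zone. With a sham infarct median of 0 counts, the fitted size depends on the prior count. The gene entered the infarct fit only through the MI group, so the values of Gdf6 are given as a description.

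Of the 11 receptors and co-receptors, 2 were higher and 5 lower in the infarct zone of MI against sham, 1 higher and 4 lower in the border zone, and 3 of the 10 tested were lower in the remote zone. The lowest values in the infarct zone were those of the repulsive guidance molecules, which act as BMP co-receptors. Hjv (hemojuvelin), which is also expressed in heart muscle, fell by 2.30 on the log2 scale in the infarct zone (SE 0.67, adjusted p = 0.0133), from a median of 225 CPM to 23.4 CPM, and its log2 fold change in the border zone was -2.02 (SE 0.50, adjusted p = 0.00897). Rgmb had log2 fold changes of -0.84, -1.01 and -0.54 by zone, from infarct to remote (SE 0.19, 0.15 and 0.12). Rgma had -0.80, -0.88 and -0.75 (SE 0.20, 0.22 and 0.15), and in the border zone it was higher in MI+Cell Sheet than in MI (0.66, SE 0.15, adjusted p = 0.0121). Bmpr1b, a type I receptor, rose by 1.73 in the MI infarct zone (SE 0.59, adjusted p = 0.0288) and was 2.90 higher in MI+Cell Sheet than in sham there (SE 0.49, adjusted p = 0.000612), at medians of 0.274, 1.24 and 2.45 CPM in sham, MI and MI+Cell Sheet. At that sham level Bmpr1b entered these fits mainly through the infarcted groups, so its values are a description. The cardiomyocyte marker sums given above were lower in the same groups, and their part in the change of Hjv was not tested. Bmpr2, the type II receptor, was lower in MI+Cell Sheet than in MI in the remote zone (-0.40, SE 0.11, adjusted p = 0.0255).

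Among the 12 other extracellular antagonists and modulators, 5 of 9 tested were higher in the MI infarct zone and none was lower. Bmp1, an astacin protease that cleaves chordin and procollagens and is no BMP ligand, rose by 1.76 in the infarct, 1.58 in the border and 0.92 in the remote zone of MI (SE 0.15 in each), with the infarct rise exceeding the remote by 0.85 (SE 0.15, adjusted p = 0.000538). Nbl1, a ligand-binding antagonist, rose by 1.00 in the remote zone (SE 0.19, adjusted p = 0.00332). Twsg1, a chordin partner, was lower in MI+Cell Sheet than in MI in the remote zone (-0.37, SE 0.10, adjusted p = 0.025), and this effect differed from the infarct zone by 0.52 (SE 0.10, adjusted p = 0.0222). Crim1, a transmembrane protein that binds BMPs, was higher in MI+Cell Sheet than in MI in the border zone (0.71, SE 0.12, adjusted p = 0.00246).

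Of the 9 signal transducers and intracellular inhibitors, 3 were higher in the MI infarct zone, 2 at the border and 1 in remote tissue, and none was lower. Of the 7 other target genes, 2 were higher in the MI infarct zone, 2 higher and 1 lower in the border zone and 1 higher in the remote zone. Hamp, which encodes hepcidin, rose by 2.44 in the infarct (SE 0.36, adjusted p = 0.000455), 2.48 in the border (SE 0.59, adjusted p = 0.00789) and 2.11 in the remote zone (SE 0.48, adjusted p = 0.00745) of MI. Msx2 fell by 1.27 in the MI border zone (SE 0.47, adjusted p = 0.046). Id2, a further member of the Id family, was lower in MI+Cell Sheet than in MI in the border zone, with medians of 31.9 and 53.3 CPM (-0.68, SE 0.15, adjusted p = 0.00902).

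**Figure D5:**
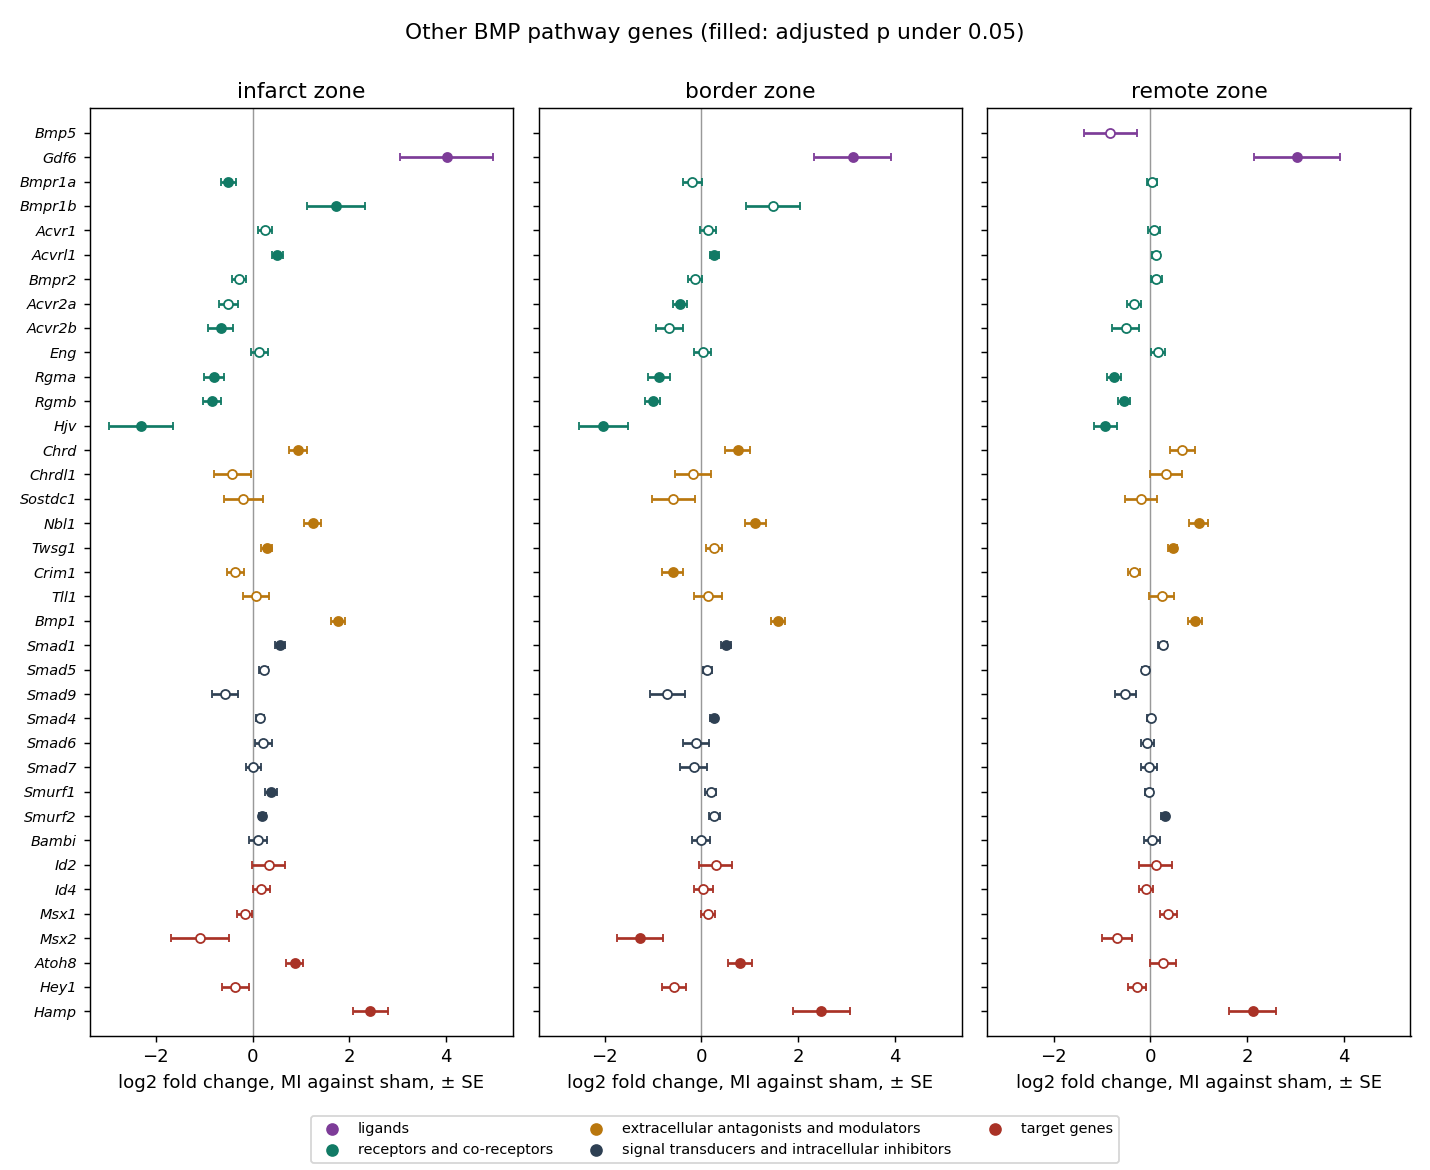
Log2 fold changes of MI against sham, with standard errors, for genes of 5 pathway lists that were tested, 1 panel per zone; filled points have an adjusted p under 0.05 and colours mark the lists. Gdf6, Hamp and Bmp1 lie on the right, and Hjv, Rgma and Rgmb on the left, in the infarct and border zones.

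Ordered by median over the 9 groups, neighbouring groups overlapped in range for every member at each of 8 steps, except Grem1, for which the MI remote zone, the fifth in order, did not overlap the sham infarct zone that followed. Bmp4 and Bmp6 had MI groups in the first 3 places and Id3, Grem1 and Bmper had the infarct and border groups of infarcted hearts in the first 4. For Id1 the first was the sham infarct zone and the last the MI+Cell Sheet infarct zone.

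The genes whose mean log2 CPM over the 9 groups followed each member most closely are given as a description, over 9 points that share zones and treatments. For Bmp4 they were Pi16, Foxs1 and Prrg4 (Pearson's r 0.967, 0.962 and 0.960), and for Bmp6 they were Ackr2, LOC690836 and Clic2 (0.982, 0.927 and 0.916). Grem1 was followed by Acp2, Polh and Arfgap3 (0.995, 0.994 and 0.993) and Bmper by Cnpy4, Nradd and Ebp (0.994, 0.992 and 0.991). Id3 went with Yipf1, LOC100911266 and Trip6 (0.995, 0.994 and 0.992), and Id1 with Cox6a2, Gatc and Gpr22 (0.993 each). For Bmp2 the genes were Zfp758, Vps41 and LOC102547925 (0.942, 0.912 and 0.910), for Bmp7 Egflam, Col6a6 and Mapk1ip1 (0.965, 0.959 and 0.948), and for Bmp10 LOC120094123, Pcsk7 and LOC120094323 (0.930, 0.900 and 0.893), where the low counts of Bmp7 and Bmp10 make such values uncertain.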

How the data were processed

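Poly-A RNA was read paired-end and aligned with STAR to mRatBN7.2 by the authors, who deposited raw counts per gene as 1 table per library. Neither the program that counted reads nor its use of strand is given in the sources used here. DESeq2 is named in the submitters' processing notes. The 5 summary lines of each table (17.0% to 42.8% of a library) were left out.

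Computations used R 4.3.3 and edgeR 4.0.16 (quasi-likelihood F test, TMM, filterByExpr, Benjamini-Hochberg over all genes tested, threshold 0.05), with only the 2 groups compared in a fit. Each SE is the absolute log2 fold change over the square root of F. Differences between zones used all 3 zones of both treatments and blocked on the animal. An offset of 0.1 CPM preceded the log2 of levels used for likeness, and the Id3 to Id1 ratio had none. Alternatives were DESeq2 1.42.0, no filter, a filter of 10 counts in each library, library sizes with no TMM scaling, the replicate number as a block, all 9 groups in a single fit and leaving out each animal. Pairs of libraries within a group differed beyond counting noise (chi-square per degree of freedom 7.97 to 539), and the tests were tested on simulated data.

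The members and lists were chosen with earlier results of these data known. Besides the 9 members, the text names at most the 3 highest and 3 lowest called genes of the pathway lists in a comparison and the 3 genes most like each member among those with a mean log2 CPM of at least 1. A gene named in a comparison may be followed in the others, and not every gene that this rule allows is named. Of 12 marker lists, summed levels are given for those that bear on a member. An item of the pathway lists is counted in them but not reported here.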

Additional observations from a re-analysis of the deposited data

Results flagged for a closer look

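Among the 81 groups of 6 libraries (9 genes in 9 groups), 12 held a library that stood apart from its other 5 by Dixon's criterion, where about 4 would by chance at 1 in 20. Sham replicate 5 and MI+Cell Sheet replicate 1 gave 8 of them.

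Sham replicate 5 stood apart at 8.85 CPM of Bmp2 in the remote zone (others 4.02 to 5.46), 18.4 CPM of Bmp6 in the border zone (others 37.7 to 42.8), 0.286 CPM of Grem1 in the infarct zone (others 0.525 to 0.641) and 0.0572 CPM of Bmp10 there, among the 12 although it is 1 count against 0 in the others, which cannot be told apart at a limit of 0.116 to 0.262 CPM for a count of 0. MI+Cell Sheet replicate 1 stood apart in the remote zone at 18.8 CPM of Bmper (others 3.13 to 7.86), 5.48 CPM of Grem1 (others 0.0579 to 0.655) and 173 CPM of Id3 (others 69 to 99), and in the infarct zone at 1.76 CPM of Bmp7 (others 0.0874 to 0.399). The marker sums of these animals are given above.

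Of the MI libraries, replicate 5 held 3.01 CPM of Bmp2 in the remote zone (others 5.17 to 6.41) and 45.5 CPM of Bmp4 in the infarct zone (others 27.6 to 34). Replicate 1 held 9.22 CPM of Bmp2 in the border zone (others 4.76 to 6), and replicate 4 held 2.59 CPM of Grem1 in the remote zone (others 0.687 to 1.18).

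The effect of MI over sham differed between the infarct and the remote zone, by the interaction test, for Grem1 (2.57 on the log2 scale, adjusted p = 0.0348) and Id3 (0.44, adjusted p = 0.0283). Neither call was stable. Of 15 alternatives, 9 kept that of Grem1 and 8 that of Id3, and both were lost without the animal block (adjusted p of 0.0641 and 0.179).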

How the results depend on the processing

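Of the 39 differences of single members called in any fit, 23 were called as reported and 15 of these stayed called under every alternative that tested them. Among the 15 are Bmp7 at the border (MI+Cell Sheet against MI) and Grem1 against sham in the infarct and border zones of both infarcted groups. The stricter filter on low counts removed the gene from each of these comparisons, so it did not test those calls. Both genes had entered these fits only through their high groups. Over the 694 alternatives of the 39, 631 kept direction and side of the threshold, 28 passed it newly, 31 lost it and 4 turned sign. The 4 were all Grem1 in the remote zone, MI+Cell Sheet against MI, at -0.99 with the replicate block and -0.01, -0.0032 and -1.56 without MI replicate 1, MI replicate 5 and MI+Cell Sheet replicate 1 (leave-one-out range -1.56 to 0.49). The cause was not tested.

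Without TMM factors the median over all genes shifted by 0.26 in the infarct, 0.19 in the border and 0.13 in the remote zone for MI against sham, members called went from 3 to 5 for MI against sham in the border and MI+Cell Sheet against sham in the infarct zone, and from 0 to 1 for the border minus remote difference. For MI+Cell Sheet against MI in the border zone the count was 2 with all 9 groups in a single fit, 0 with at least 10 counts in every library (Bmp7 is then not tested) and 1 to 2 leaving out single libraries. In the remote zone it was 0 with the replicate block and 2 to 4 leaving out single libraries. For the infarct minus remote difference of MI against sham it was 1 without a filter, 0 without the animal block and 0 to 3 leaving out animals, and for border minus remote 0 to 1. Bmper in the MI remote zone lost its call with all 9 groups in a single fit (adjusted p = 0.0798).

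Libraries with the same replicate number but different treatment did not deviate together (correlations from -0.81 to 0.67, median -0.07), so the numbers were not taken as pairs. With the replicate block Bmper in the MI border zone (1.16, adjusted p = 0.0517), Id1 in the MI+Cell Sheet border zone (-0.52, adjusted p = 0.105) and, in the remote zone, Bmp4 (adjusted p = 0.0577) and Bmp6 (adjusted p = 0.0678) in MI+Cell Sheet against MI lost their calls.

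Over all genes, the block moved counts from 6517 to 4031 (MI against sham, border), from 2922 to 1028 (MI+Cell Sheet against MI, border) and from 2623 to 3 (the same, remote). The last was 1096 to 6450 leaving out single libraries. MI against sham in the remote zone gave 7177 without sham replicate 5, and the border comparison of the cell sheet with MI 1941 without MI+Cell Sheet replicate 2. For the infarct zone of MI+Cell Sheet against MI, DESeq2 called 56 genes and the fit of all 9 groups 6. MI+Cell Sheet against sham in the remote zone gave 173 with DESeq2, 183 in the fit of all groups, 0 to 17 leaving out single libraries, and 128 without sham replicate 5 and MI+Cell Sheet replicate 1, an alternative chosen after seeing the data. Without the animal block the difference of MI against sham between infarct and remote zones gave 1572 genes instead of 4751, and that between border and remote zones 0 instead of 689 (236 without a filter, 1 to 2217 leaving out animals). Between infarct and border zones it gave 0 to 23. The effect of the sheet over MI gave 0 to 2303 genes (infarct minus remote), 16 to 1051 (border minus remote) and 0 to 292 (infarct minus border) over the same alternatives. Depth limits Bmp7 and Bmp10 most, at 0 to 42 counts per library.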
